A study of Homo sapiens with 16 samples.

Results

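Cells labelled definitive endoderm, which carried an empty lentiviral vector, were followed by their mRNA from day 3 to day 5 of differentiation. Whether endoderm had fully formed by day 3 was not tested. The comparison was day 5 (2 arrays) against day 3 (2 arrays), with day 4 (2 arrays) as the point between them, so that 6 of the 16 arrays of the series were members. All were H1 human embryonic stem cells, an established line, differentiated in activin A at 50 ng/mL, BMP4 at 10 ng/mL and FGF2 at 20 ng/mL for 2 days and then in activin A alone at 50 ng/mL. Activin A alone was therefore given for 1 day in day 3 cells, 2 days in day 4 cells and 3 days in day 5 cells. The day of differentiation and the time since BMP4 and FGF2 were withdrawn cannot be told apart. No doxycycline was given, and the vector cells were a polyclonal line. Undifferentiated day 0 control cells (2 arrays) are given below as a baseline level. GATA6-depleted cells of the same line, which expressed a short hairpin against GATA6, were set against the controls over the same interval (2 arrays a day). The replicates were described in the study as independent differentiations, while the labels do not say so. The p values and SEs measure only a spread between arrays, pooled over all 8 groups of the series and not over the control arrays alone. The groups also held rescue cells at day 5 (2 arrays), with the hairpin, a hairpin-resistant GATA6 and doxycycline at 60 ng/mL.

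Definitive endoderm is the germ layer from which the lining of the gut, the liver, the pancreas and the lung are formed. In the embryo it passes through the primitive streak, where cells transiently express TBXT and MESP1 and lose epithelial contacts, and it is specified by high Nodal signaling, for which activin A stands in culture. Nascent endoderm then regains an epithelium, and WNT and BMP signals are antagonised where the anterior gut will form.

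Each value is a log2 level per probe set, so that a difference of 1 is a change of 2-fold in signal. Of the 18132 genes tested, 2096 (11.6%) passed an adjusted p of 0.05 between day 5 and day 3, of which 1108 were higher at day 5 (6.11%) and 988 lower (5.45%). Along the first principal component of the 6 control arrays, which held 55.6% of their variance, scores were −40.6 and −22.9 at day 3, −2.97 and 11.4 at day 4 and 22.2 and 33.0 at day 5. The days did not overlap on this axis, and replicate 2 lay further along it than replicate 1 on each day. Day 4 replicate 2 differed from day 5 replicate 1 (0.275 log2, root mean square over genes) about as much as from its own replicate (0.274). The 3′ minus 5′ difference of the ACTB control probes was 2.19 log2 on day 3 replicate 2 and 1.36 to 1.71 on the other 5 arrays. The count of genes was 1144 without day 3 replicate 1 and 1059 without day 5 replicate 2, and 697 genes kept the call in each of the 6 fits that left out 1 of these arrays.

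The gene with the largest rise was IGFBP5, which encodes a secreted binding protein of insulin-like growth factors. IGFBP5 read 3.61 and 3.48 log2 at day 3, 5.82 and 9.73 at day 4 and 10.65 and 11.42 at day 5, a difference of 7.48 ± 0.87 (SE, adjusted p = 0.000254) or 179-fold between day 5 and day 3. This is the largest of its 6 probe sets, all called, which began at 2.51. The 3 days did not overlap, although the day 4 arrays lay far apart, and the day 0 arrays read 4.52 and 5.49. TMEM100, a transmembrane protein known from vascular development, read 4.60 and 5.09 at day 3, 7.35 and 8.42 at day 4 and 9.50 and 9.96 at day 5 (4.89 ± 0.28, adjusted p = 2.24e-06). AMOT, a scaffold of tight junctions that binds YAP, had the smallest adjusted p of all genes, although its 4 probe sets ran from 0.22 to 3.81 and 1 was not called. By the probe set used, AMOT read 4.57 and 4.09 at day 3, 6.45 and 6.47 at day 4 and 8.17 and 8.11 at day 5 (3.81 ± 0.17, adjusted p = 2.35e-07). TMEM100 and AMOT rose in both steps, with no overlap between neighbouring days. Both arrays of day 5 lay beyond both of day 3 for all 2096 called genes, and for 48% of all genes tested. The share of all genes was 41.6% for day 4 against day 3 and 39.9% for day 5 against day 4. Days without overlap are therefore a description and add no support to a call.

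The other 9 of the 12 largest rises included the transcription factors FOXQ1 and SOX21. FOXQ1 read 4.94 and 6.98 at day 3, 7.10 and 9.98 at day 4 and 9.89 and 11.19 at day 5 (4.58 ± 0.77, adjusted p = 0.00236). SOX21, a repressor of the SOXB2 group, read 2.69 and 2.86 at day 3, under the lower quartile of its arrays, then 4.57 and 6.75 at day 4 and 6.40 and 8.03 at day 5 (4.44 ± 0.69, adjusted p = 0.00148). Day 4 replicate 2 overlapped the day 5 arrays for both factors, while day 3 lay below each of them. Secreted or receptor proteins made up most of the rest. They were the WNT antagonist FRZB (3.64 ± 0.39), the apolipoprotein APOA1 (3.54 ± 0.37), the natriuretic peptide NPPB (3.83 ± 0.51), the cystatin CST1 (4.00 ± 0.31), the gut hormone CCK (3.49 ± 0.78) and the receptor for it and gastrin, CCKBR (3.49 ± 0.41). The calcium-binding protein S100A14 rose by 4.41 ± 0.54.

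NPPB was called at the second step and CCK at neither step (2.91 ± 0.78 for day 5 minus day 4, adjusted p = 0.209). NPPB read 7.0 and 6.01 at day 3, 6.74 and 7.61 at day 4 and 9.45 and 11.23 at day 5, so that days 3 and 4 overlapped and day 5 stood above them. CCK read 3.62 and 3.29 at day 3, 3.55 and 4.53 at day 4 and 5.21 and 8.68 at day 5, with replicate 2 of day 5 far above all others. The call of CCK was lost without day 3 replicate 1 or replicate 2 (adjusted p = 0.0517 and 0.0529), and its second probe set gave 0.64. CCKBR was high earlier, at 5.93 and 7.81 at day 3, 9.56 and 9.77 at day 4 and 10.28 and 10.44 at day 5, against 3.09 and 2.80 at day 0.

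**Figure D1:**
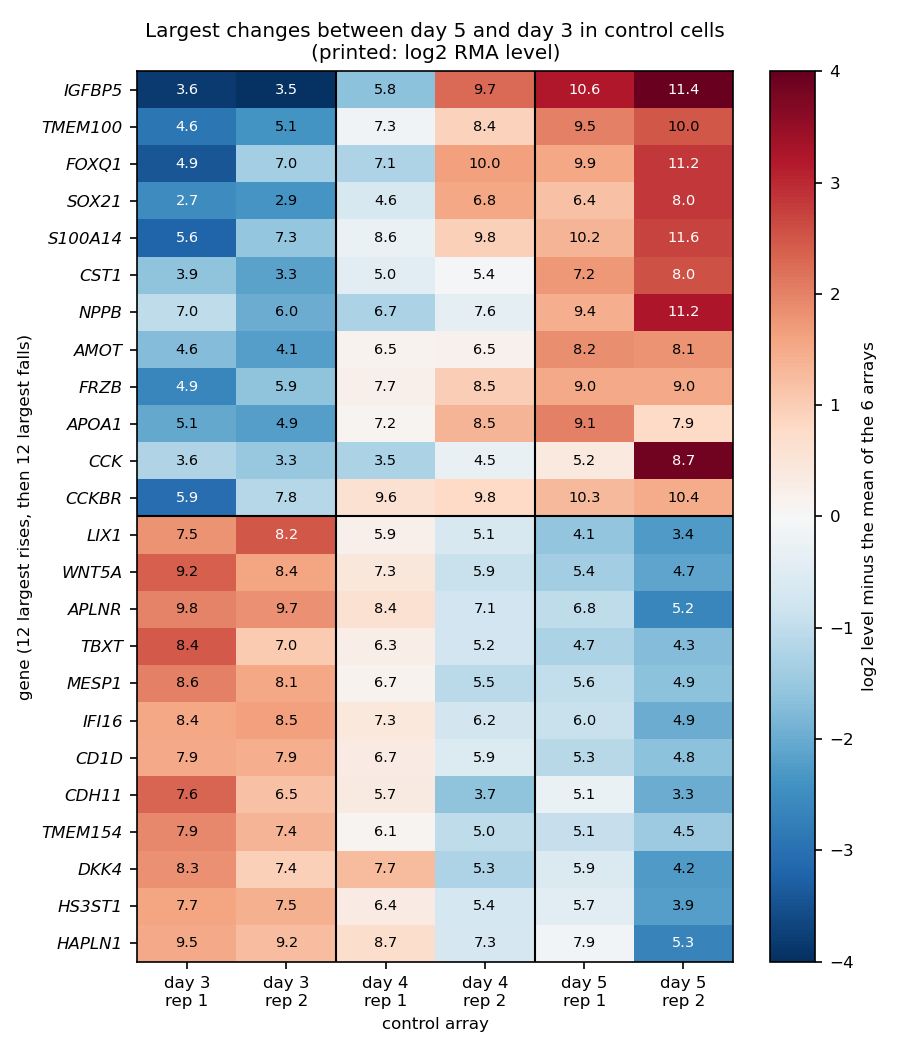
Log2 RMA levels (printed) of the 12 top rises and 12 top falls of day 5 against day 3, on the 6 control arrays in columns from day 3 to day 5. Color gives the level minus the gene's mean over the 6 arrays, and each gene has its day 4 mean between those of days 3 and 5, with IGFBP5 spanning 3.48 to 11.42.

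Genes of the primitive streak and its mesoderm were among the largest falls. LIX1, which fell furthest, read 7.49 and 8.19 at day 3, 5.90 and 5.06 at day 4 and 4.11 and 3.45 at day 5 (−4.06 ± 0.41, adjusted p = 0.000117). WNT5A, a ligand of the noncanonical WNT pathway, read 9.20 and 8.39 at day 3, 7.25 and 5.92 at day 4 and 5.41 and 4.70 at day 5 (−3.74 ± 0.40, adjusted p = 0.000149). TBXT, the T-box factor of the streak also called Brachyury, read 8.44 and 7.04 at day 3, 6.25 and 5.21 at day 4 and 4.72 and 4.26 at day 5 (−3.25 ± 0.37, adjusted p = 0.00025). For each of these genes the first step was called, the second was not, and the 3 days did not overlap. The day 5 arrays lay near the day 0 levels of 3.66 and 3.55 for LIX1, 4.54 and 4.90 for WNT5A and 3.62 and 3.69 for TBXT.

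The apelin receptor APLNR (−3.71 ± 0.54) and the mesoderm factor MESP1 (−3.08 ± 0.39) also fell. MESP1 read 8.59 and 8.12 at day 3, 6.73 and 5.50 at day 4 and 5.61 and 4.93 at day 5, so that the day 4 and day 5 arrays overlapped. IFI16, a DNA sensor, read 8.44 and 8.54 at day 3, 7.30 and 6.15 at day 4 and 6.0 and 4.90 at day 5 (−3.04 ± 0.36), and 2.37 and 2.55 at day 0. The other falls were CD1D, which presents lipid antigens (−2.88), the cadherin CDH11 (−2.86), TMEM154 (−2.83), the WNT antagonist DKK4 (−2.81), the heparan sulfate sulfotransferase HS3ST1 (−2.81) and the hyaluronan link protein HAPLN1 (−2.77). The second probe set of CD1D gave 0.12. The calls of CDH11, DKK4 and HAPLN1 were lost without day 3 replicate 1 or day 5 replicate 2 (adjusted p from 0.0799 to 0.205).

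Of these 24 genes, 20 kept the call without each of the 6 arrays. Of the 17 that were read by several probe sets, 16 had all of them moving in 1 direction. Of all 75 named genes that were called with several probe sets, 66 had all in 1 direction and 37 had all of them called.

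Promoter windows of the 24 genes were searched for the motif of GATA factors, because GATA6 is the factor that the series depletes. Windows of 300 bases, from 250 before to 50 after each gene's start, were taken from RefSeq on GRCh38.p14, which held them for 15 of the 24 genes and for 14425 of the 18132 genes tested. The motif was spelled AGATAA or TGATAA on either strand, 2 spellings that cannot overlap at the same bases, and 3 of the 15 windows held it. They are the windows of FRZB, among the rises (chr2:182866588-182866887, minus strand), and of IFI16 (chr1:159008741-159009040, plus strand) and TMEM154 (chr4:152679948-152680247, minus strand), among the falls. They are shown 5′ to 3′ on the gene's strand with the match in capitals.
FRZB: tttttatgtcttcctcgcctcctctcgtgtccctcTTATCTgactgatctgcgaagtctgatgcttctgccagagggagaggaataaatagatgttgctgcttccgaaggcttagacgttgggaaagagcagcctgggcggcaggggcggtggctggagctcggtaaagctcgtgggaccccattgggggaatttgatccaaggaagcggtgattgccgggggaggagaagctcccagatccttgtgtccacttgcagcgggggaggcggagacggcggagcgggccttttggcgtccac
IFI16: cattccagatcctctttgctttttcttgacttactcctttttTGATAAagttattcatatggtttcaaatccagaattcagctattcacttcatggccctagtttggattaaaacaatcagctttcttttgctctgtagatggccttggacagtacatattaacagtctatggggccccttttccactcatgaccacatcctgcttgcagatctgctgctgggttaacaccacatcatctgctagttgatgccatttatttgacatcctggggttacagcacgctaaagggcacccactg
TMEM154: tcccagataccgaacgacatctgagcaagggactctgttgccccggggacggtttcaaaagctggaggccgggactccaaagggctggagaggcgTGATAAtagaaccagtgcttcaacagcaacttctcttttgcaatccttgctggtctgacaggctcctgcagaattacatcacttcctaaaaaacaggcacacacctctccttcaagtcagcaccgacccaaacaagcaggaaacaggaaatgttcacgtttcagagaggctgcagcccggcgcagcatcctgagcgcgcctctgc
The motif stood in 9.81% of the windows of genes called higher and in 9.49% of those called lower, against 11.9% of all windows. The FOXA motif, spelled TGTTTAC or TGTTTGC on either strand, stood in 5.18% and 4.43%, against 5.58% of all windows, and in none of the 15. A match is a description of the letters and not of binding. In day 4 endoderm the paper mapped GATA6 binding mostly to intergenic and intronic sequence, with a small share at proximal promoters. The windows lie within proximal promoters, so sites elsewhere were not searched.

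Day 4 was examined to learn whether the changes ran in 1 direction through the interval. The day 4 mean lay between the means of days 3 and 5 for 1937 of the 2096 called genes (92.4%), against 8713 of all 18132 genes (48.1%). Since a gene is called for a large difference between day 5 and day 3, a day 4 mean between them is favored by the choice itself, and the share is a description. Both day 4 arrays lay between the nearest day 3 and day 5 arrays for 1161 called genes (55.4%), against 10.2% of all genes. Genes that rose had the day 4 mean between in 1070 of 1108 cases (96.6%), and genes that fell in 867 of 988 (87.8%). The 159 genes outside the range left it by a median of 0.079 log2 and by 0.645 at most.

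Between day 4 and day 3, 567 genes were called (3.13%), 220 higher (1.21%) and 347 lower (1.91%), a balance that turned to 444 higher and 356 lower without day 3 replicate 2. Between day 5 and day 4, 43 were called (0.237%), 40 higher (0.221%) and 3 lower (0.0165%). Over the genes called higher at day 5 the median first step was 0.44 and the median second step 0.36, and over the genes called lower they were −0.50 and −0.23. The largest first steps were those of IGFBP5 (4.23), TMEM100 (3.04), SOX21 (2.88), APOA1 (2.87) and CCKBR (2.79) upward, and of CDH11 (−2.37), LIX1 (−2.36), the transcriptional repressor ZEB2 (−2.29), MESP1 (−2.24) and WNT5A (−2.21) downward.

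The second step was led by NPPB (3.16 ± 0.51, adjusted p = 0.0243), CST1 (2.40), the zinc finger factor PLAGL1 (2.35), the proteoglycan SPOCK3 (2.04) and the solute carrier SLC7A14 (1.85). PLAGL1 read 3.37 and 2.77 at day 3, 3.81 and 4.06 at day 4 and 6.13 and 6.44 at day 5, so that day 5 stood well apart from the earlier days. SLC7A14 read 3.51 and 3.53 at day 3, 3.58 and 3.26 at day 4 and 4.97 and 5.57 at day 5, and days 3 and 4 overlapped. The 3 genes that fell at the second step were the protease TMPRSS11E (−0.99), the claudin CLDN4 (−0.76) and PKNOX2 (−0.63), each of which had its highest mean of the 3 days at day 4. In all, 12 genes passed the test in both steps and between days 5 and 3, and each of them rose.

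No gene departed from the midpoint of days 3 and 5 at day 4 by limma's moderated test (0 of 18132, 0%), with 1177 genes at an unadjusted p under 0.05, a smallest adjusted p of 0.145 and a median SE of 0.132 log2. Without day 5 replicate 1 the count was 24, and without day 3 replicate 2 it was 3. The step counts turned on single arrays as well. Without day 4 replicate 2 the first step had 37 genes and without day 3 replicate 1 it had 157. The second step had 5 genes without day 4 replicate 1, 27 without day 4 replicate 2, 182 without day 5 replicate 1 and 9 without day 5 replicate 2. Among called genes whose day 4 mean fell outside the range, those that changed by at least 1 log2 included PSAT1 of serine synthesis, with means of 11.08, 9.69 and 10.06 at days 3, 4 and 5, the KIT ligand KITLG, with 7.57, 5.73 and 6.04, and the metallothionein MT1M, with 6.38, 6.60 and 4.57.

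**Figure D2:**
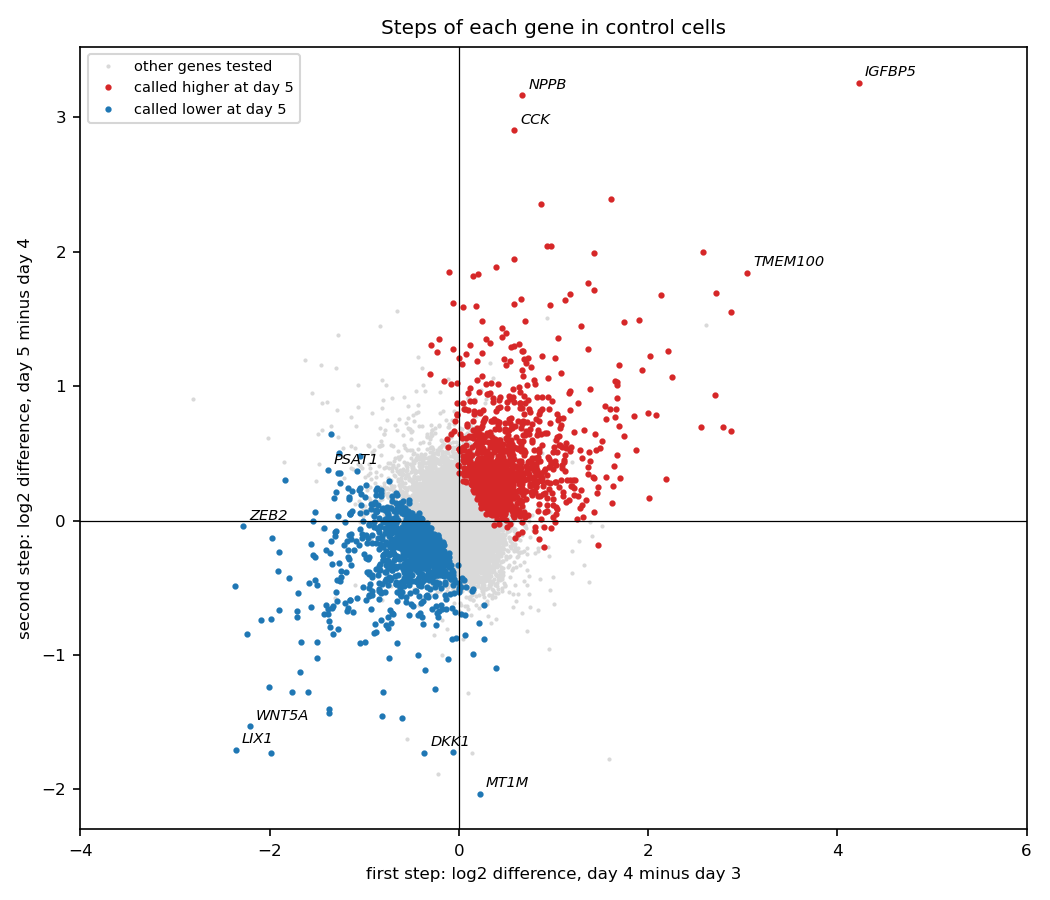
Each point is a gene, with its log2 difference of day 4 minus day 3 on the horizontal axis and of day 5 minus day 4 on the vertical axis, in control cells. Genes called higher at day 5 (red) lie mostly in the upper right part and genes called lower (blue) mostly in the lower left, with NPPB at 0.67 and 3.16 and ZEB2 at −2.29 and −0.04. Both axes hold the day 4 arrays, and no relation between them is drawn.

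Among the 12 factors that the study followed, GATA6, EOMES and CER1 differed least between days 5 and 3. GATA6 read 11.44 and 11.60 at day 3, 11.44 and 11.53 at day 4 and 11.56 and 11.49 at day 5 (0.01 ± 0.29, adjusted p = 0.993), after 1.72 and 1.86 at day 0. EOMES, the T-box activator of endoderm, read 12.38 and 12.42 at day 3, 12.35 and 12.25 at day 4 and 12.34 and 12.18 at day 5 (−0.14 ± 0.20, adjusted p = 0.729). The Nodal antagonist CER1 (0.14 ± 0.52), the SRY-type factor SOX17 (0.34 ± 0.19), the zinc finger factor GATA4 (0.51 ± 0.31) and the homeobox factor GSC (0.60 ± 0.29) did not pass the test either, with adjusted p from 0.233 to 0.909. The day 5 arrays of GSC, at 10.66 and 11.20, lay above those of days 3 and 4. The arrays of days 3, 4 and 5 overlapped for GATA6, and SOX17 read 10.06 to 10.70 on all 6. CER1 and EOMES stood above 12 log2 on each of the 6 arrays, and GATA6 read 11.44 to 11.60. All 3 lay in the upper part of a scale whose highest value was 13.75. The pooled SE of CER1 also holds the spread of its day 0 arrays, which read 4.12 and 6.25.

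CXCR4, a chemokine receptor and common surface marker of endoderm, rose. CXCR4 read 8.89 and 10.02 at day 3, 10.45 and 11.22 at day 4 and 11.46 and 12.17 at day 5, without overlap (2.36 ± 0.42, adjusted p = 0.00344). FOXA2, a forkhead factor of the gut, read 4.63 and 5.18 at day 3, 5.26 and 6.14 at day 4 and 5.48 and 6.97 at day 5 (1.32 ± 0.38, adjusted p = 0.0422), and it lost the call without day 3 replicate 1 or day 5 replicate 2 (adjusted p = 0.239 to 0.322). FGF17 missed the threshold (1.38 ± 0.42, adjusted p = 0.0504), as did HHEX, a homeobox factor of the foregut (0.94 ± 0.36, adjusted p = 0.12). POU5F1, the pluripotency factor, read 11.90 and 11.66 at day 3, 11.18 and 10.65 at day 4 and 10.68 and 11.05 at day 5 (−0.92 ± 0.17, adjusted p = 0.0037). Its days 4 and 5 overlapped, and its fall was called at the first step (−0.86) and not at the second (−0.05).

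**Figure D3:**
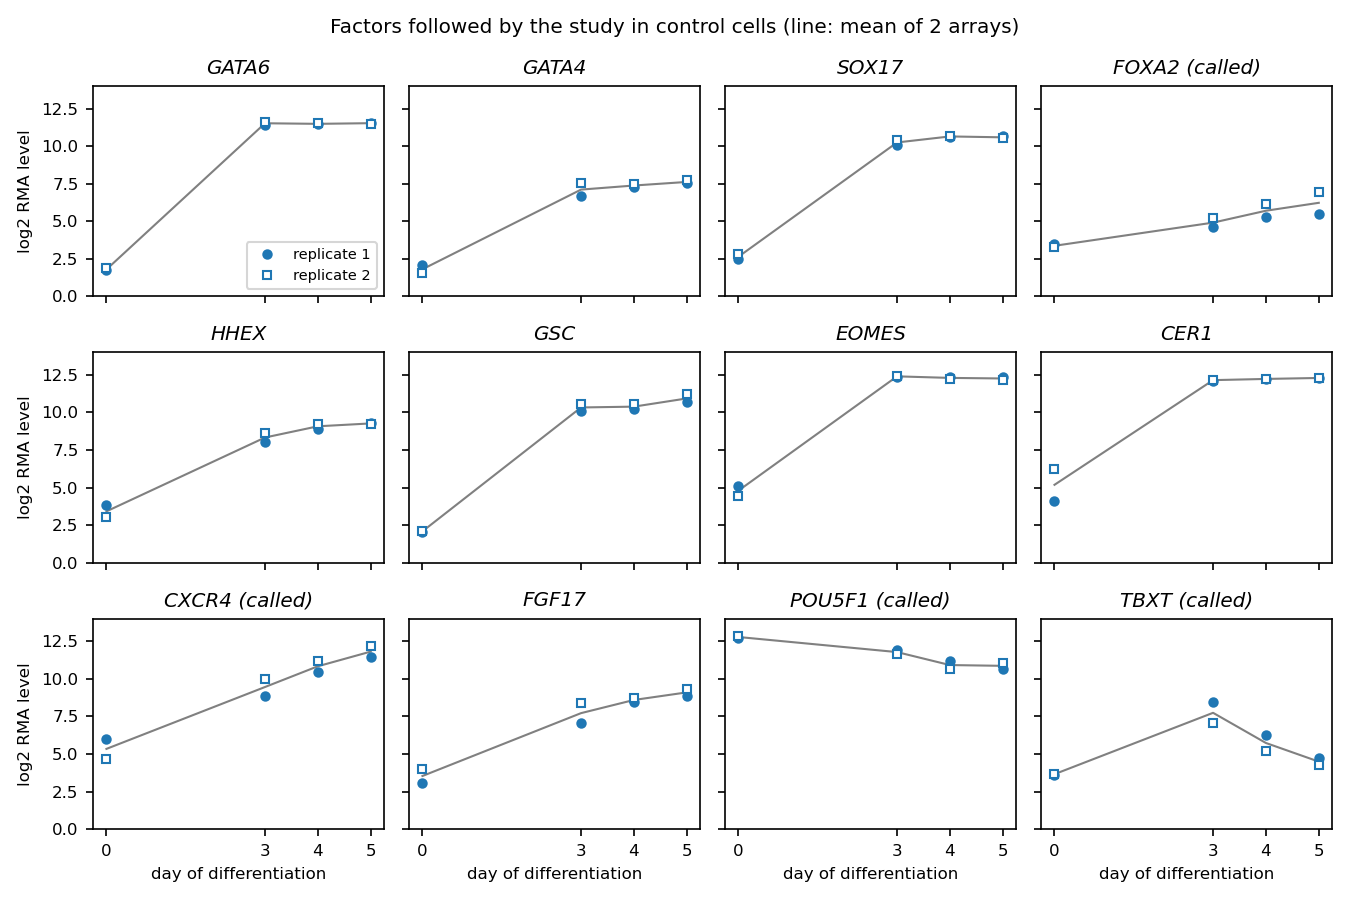
Log2 RMA levels of 12 factors in control cells at days 0, 3, 4 and 5, with filled circles for replicate 1, open squares for replicate 2 and a line through the means. GATA6, EOMES and CER1 stay between 11.44 and 12.42 from day 3 to day 5, while CXCR4 and FOXA2 rise and TBXT reads 4.72 and 4.26 at day 5.

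Each list count below for day 5 against day 3 is to be read beside all genes tested. Of these, 6.11% were called higher and 5.45% lower. Of 25 measured genes on the list of definitive endoderm, 7 rose and 2 fell, with a median difference of 0.56, against −0.02 over all genes tested. The risers were FRZB, the glycoprotein hormone STC1 (2.80 ± 0.30), CXCR4, the troponin TNNC1 (1.50), FOXA2, the claudin CLDN6 (0.65) and FOXA1 (0.56 ± 0.17, adjusted p = 0.0475). FOXA1 read 2.15 and 2.17 at day 3, 2.61 and 2.36 at day 4 and 2.47 and 2.99 at day 5, under the lower quartile on each of the 6 arrays, where background limits the level, and it was the 1 called gene of all the lists of which this was so. STC1 read 9.09 and 9.86 at day 3, 11.27 and 11.66 at day 4 and 12.07 and 12.47 at day 5, with the first step called and the 3 days apart. The 2 that fell were DKK4 and MIXL1, a homeobox gene of mesendoderm (−1.39). The count of risers was 4 without day 3 replicate 1, 10 without day 3 replicate 2 and 4 without day 5 replicate 2.

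Of 20 genes of the primitive streak and mesendoderm, 9 fell and 0 rose, with a median of −0.64. Besides APLNR, TBXT, MESP1 and MIXL1 these were the growth factor receptor PDGFRA (−1.99, with 1 of 4 probe sets called and the highest at 0.011), the somite factor MESP2 (−1.80), the ligand WNT8A (−1.61), the WNT target SP5 (−1.36) and the repressor of E-cadherin SNAI1 (−1.24). The mean level of the list was 7.48 and 7.29 at day 3, 6.87 and 6.53 at day 4 and 6.47 and 6.36 at day 5, and the days did not overlap. Members that did not pass included NODAL (0.65) and FGF8 (0.81).

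Of 18 lateral and cardiac mesoderm genes, 7 were lower, 1 was higher and 10 did not pass. The forkhead factor FOXF1 read 5.65 and 5.56 at day 3, 3.99 and 3.24 at day 4 and 2.80 and 2.96 at day 5 (−2.72 ± 0.24, adjusted p = 4.47e-05), where it was under the lower quartile of its arrays. HAND1 (−2.58), HAND2 (−1.96), TBX3 (−1.57) and the VEGF receptor KDR (−1.40) also fell, with PDGFRA and MESP1. The call of HAND1 was lost without day 5 replicate 2 (adjusted p = 0.0567). The member that rose was MYL7, an atrial myosin light chain (2.03 ± 0.36), at 8.0 and 8.02 at day 5 against 5.79 and 6.18 at day 3. In bulk RNA, fewer cells of a type and less RNA per cell cannot be told apart.

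Of 19 genes of the BMP response, 9 fell, 0 rose and 10 did not pass, with a median of −0.57. The inhibitors of DNA binding, which are direct targets of BMP signaling, were ID1 (−1.55), ID2 (−2.12), ID3 (−1.51) and ID4 (−2.28). ID2 read 8.19 and 8.21 at day 3, 7.06 and 6.59 at day 4 and 6.23 and 5.93 at day 5, with no overlap (SE 0.26, adjusted p = 0.000311). ID4 read 7.79 and 5.86 at day 3, 5.14 and 4.69 at day 4 and 4.50 and 4.57 at day 5, with day 3 replicate 1 well above all others. In GATA6-depleted cells ID2 changed by 0.22 and ID4 by 0.85. The difference from the change in control cells was 2.35 ± 0.37 (adjusted p = 0.000853) for ID2. For ID4 it was 3.13 ± 0.64 (adjusted p = 0.00453). ID2 and ID4 are given because they were named for the size of their change. Over the list, 6 genes changed more upward in depleted cells and 3 more downward, against 8.63% and 9.26% of all genes. What lowered the ID genes was not tested. The extracellular modulators BMPER (−2.52 ± 0.29) and NOG (−1.21), the pseudoreceptor BAMBI (−1.24), TBX3 and SMAD9 (−0.50) completed the 9 falls in control cells. BMPER read 9.28 and 9.24 at day 3, 7.80 and 7.73 at day 4 and 6.99 and 6.49 at day 5. Without any 1 of the arrays of days 3 and 5 the list had 8 or 9 falls.

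WNT pathway genes moved in both directions, with 3 of 20 higher and 6 lower. Antagonists were on both sides. FRZB and SFRP1 (1.71) rose, DKK4, DKK1 (−2.09) and SFRP2 (−1.63) fell, and the R-spondin receptor LGR4 rose (1.27). DKK1 read 8.59 and 8.64 at day 3, 8.29 and 8.20 at day 4 and 7.70 and 5.34 at day 5, so that replicate 2 of day 5 carried most of the difference. Its call was lost without day 3 replicate 1, day 3 replicate 2 or day 5 replicate 2 (adjusted p = 0.0752 to 0.13). The ligand WNT5A and the targets LEF1 (−1.35) and SP5 fell, while AXIN2, a general target of canonical WNT signaling, differed by 0.17 and did not pass. The 6 falls were 3 without day 3 replicate 1.

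Of 15 genes of the Nodal and activin pathway, 3 rose and 0 fell. They were LEFTY2, a Nodal antagonist that Nodal itself induces (1.51), the activin antagonist FST (1.44 ± 0.21, adjusted p = 0.000999) and the TGF-beta family ligand GDF3 (1.15). FST read 8.72 and 8.66 at day 3, 9.55 and 9.59 at day 4 and 10.19 and 10.08 at day 5, with the 3 days apart. LEFTY2 lost the call without any 1 of the 4 arrays of days 3 and 5 (adjusted p = 0.0639 to 0.135). Of 17 genes of FGF and ERK feedback, 2 rose, the phosphatase DUSP4 (1.86 ± 0.20, adjusted p = 0.000145) and SPRY2 (0.54), and PHLDA1 fell (−1.43) with a call that was lost without day 3 replicate 1 or day 5 replicate 2 (adjusted p = 0.149 to 0.194). The risers were 4 without day 3 replicate 2. In all, 11.8% of the FGF and ERK list were called higher and 5.88% lower, against 6.11% and 5.45% of all genes. The immediate early factor EGR1 had the largest difference on that list (4.07 ± 1.26, adjusted p = 0.0564) and did not pass. It read 2.58 and 8.83 at day 3, 8.36 and 8.28 at day 4 and 9.43 and 10.12 at day 5, so that day 3 replicate 1 alone was low. FOS showed the same array apart, at 4.02 and 7.88 at day 3, 7.17 and 6.58 at day 4 and 8.24 and 8.53 at day 5.

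Epithelial genes rose. Of 17 measured genes of epithelial junctions, 11 rose and 1 fell, with a median of 0.65. The desmosomal plakophilin PKP2 read 5.93 and 6.39 at day 3, 7.32 and 7.77 at day 4 and 7.93 and 8.04 at day 5 (1.83 ± 0.27, adjusted p = 0.000929). The adhesion molecule EPCAM read 9.64 and 9.93 at day 3, 10.37 and 11.14 at day 4 and 11.01 and 11.34 at day 5 (1.39 ± 0.21, adjusted p = 0.00118). Both genes were higher on each day 4 and day 5 array than at day 3, and EPCAM overlapped between days 4 and 5. Occludin (OCLN, 1.41), the keratins KRT8 (1.11), KRT19 (0.97) and KRT18 (0.69), the claudins CLDN7 (0.93), CLDN6 and CLDN3 (0.62), the splicing factor ESRP2 (0.92) and desmoplakin (DSP, 0.56) were the others. E-cadherin itself, CDH1, differed by −0.40 and did not pass, and CLDN4 fell (−0.55), with a call that was lost without day 3 replicate 1 or day 5 replicate 2 (adjusted p = 0.0534 to 0.0942). The count of risers was 6 without day 3 replicate 1 and 6 without day 5 replicate 2.

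Of 15 genes of epithelial to mesenchymal transition, 7 fell and 1 rose. ZEB2 read 4.56 and 5.19 at day 3, 3.05 and 2.12 at day 4 and 2.89 and 2.19 at day 5 (−2.33 ± 0.31, adjusted p = 0.000555), so that days 4 and 5 overlapped, and at day 5 it was under the lower quartile of its arrays. SNAI2 (−2.12), SNAI1, TWIST2 (−1.01), CDH11, the metalloproteinase MMP2 (−1.66) and the integrin ITGB1 (−0.39) fell with it, and N-cadherin (CDH2) rose (0.72). The number of falls was 3 without day 3 replicate 1 and 3 without day 5 replicate 2. Of 16 basement membrane genes, 7 rose and 2 fell. Perlecan (HSPG2, 1.49), the collagen chains COL4A6 (1.20), COL4A5 (0.89), COL4A1 (0.69), COL4A2 (0.63) and COL18A1 (0.62) and the laminin LAMA1 (0.39) were higher, while nidogen 1 (NID1, −0.85) and the laminin chain LAMC1 (−0.70) were lower, and without day 5 replicate 2 the risers were 4.

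Of 24 cell cycle genes, 16 fell and 0 rose, and each of the 24 had a difference below 0, with a median of −0.59. MKI67, the proliferation antigen, read 8.66 and 8.28 at day 3, 7.87 and 7.54 at day 4 and 7.64 and 7.18 at day 5 (−1.06 ± 0.23, adjusted p = 0.0112). The mitotic kinases BUB1 (−1.08 ± 0.16, adjusted p = 0.00122) and AURKB (−0.91) and the cyclin CCNA2 (−0.85) fell further relative to their errors. The list's mean level was 8.76 and 8.63 at day 3, 8.25 and 8.30 at day 4 and 8.19 and 8.02 at day 5, without overlap. Without day 3 replicate 1 the count was 7, and without day 5 replicate 2 it was 7. MKI67 was among those lost (adjusted p = 0.101 to 0.105).

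Of 17 cyclin-dependent kinase inhibitors and p53 targets, 6 rose and 1 fell. The inhibitors CDKN2B (1.49 ± 0.21, adjusted p = 0.000848), CDKN1C (1.14), CDKN1B (0.87) and CDKN2D (0.73) were higher, as were TP53INP1 (1.04) and ZMAT3 (0.62). CDKN2B read 2.58 and 2.81 at day 3, under the lower quartile of its arrays, then 3.18 and 3.34 at day 4 and 4.01 and 4.35 at day 5. The death-promoting PMAIP1 fell (−1.33), and CDKN1A, the classical p53 target, differed by 0.42 and did not pass. TP53INP1 lost its call without day 3 replicate 1 (adjusted p = 0.0733).

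Of 22 apolipoproteins and liver-type secreted proteins, 4 rose (18.2%, against 6.11% of all genes) and 0 fell, and all 4 were apolipoproteins. APOA2 read 5.26 and 7.55 at day 3, 8.30 and 9.63 at day 4 and 9.27 and 10.05 at day 5 (3.25 ± 0.57, adjusted p = 0.00298), against 2.69 and 3.19 at day 0. APOA1 read 5.05 and 4.89 at day 3, 7.23 and 8.46 at day 4 and 9.11 and 7.91 at day 5, while APOE (1.18) and APOC1 (1.09) rose, with day 3 arrays between 9.79 and 10.69. Day 4 replicate 2 overlapped day 5 for both APOA1 and APOA2. The 5 probe sets of APOC1 ran from −0.07 to 1.09, and 3 were called. Albumin (ALB, 0.01), alpha-fetoprotein (AFP, 0.54), transthyretin (TTR, −0.14) and the other secreted proteins of hepatocytes did not pass.

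Of 16 foregut and liver bud factors, PROX1 (0.86) and FOXA1, which was under the lower quartile throughout, rose and TBX3 fell, while PDX1 (−0.17), NKX2-1 (−0.07) and CEBPA (0.52) did not pass. These calls were 12.5% of the list higher and 6.25% lower, against 6.11% and 5.45% of all genes. PROX1 lost the call without day 3 replicate 1 or day 5 replicate 2 (adjusted p = 0.0751 to 0.0921), and in either case 0 of the 2 risers were left. Of 10 hindgut and posterior factors, 2 fell, WNT5A and HOXB6 (−1.12), and CDX2 (−0.13) did not pass. HOXB6 lost the call without day 3 replicate 1 or day 5 replicate 2 (adjusted p = 0.0871 to 0.126). Of 16 genes shared with yolk sac endoderm, 6 rose (37.5%) and 2 fell. The 6 were FOXQ1, APOA1, APOA2, COL4A1, COL4A2 and LAMA1, and the 2 were PDGFRA and SOX7 (−0.93), and 4 risers were left without day 5 replicate 2.

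The pluripotency list split, with 5 of 17 genes higher and 4 lower. FOXD3 read 3.75 and 4.15 at day 3, 4.67 and 4.72 at day 4 and 5.18 and 5.58 at day 5 (1.43 ± 0.34, adjusted p = 0.0167), below its day 0 levels of 7.07 and 8.53. SOX2 read 6.79 and 7.58 at day 3, 7.67 and 7.82 at day 4 and 7.89 and 8.44 at day 5 (0.98 ± 0.23, adjusted p = 0.015), below 10.35 and 10.69 at day 0. Its 3 probe sets ran from 0.12 to 0.98, and 1 was called. GDF3, the deubiquitinase USP44 (1.02) and SALL4 (0.70) were the other risers. POU5F1, ZFP42 (−0.52), LIN28B (−0.50) and L1TD1 (−0.41) fell, and NANOG differed by 0.06. The calls of FOXD3, SOX2 and USP44 were lost without day 3 replicate 1 or day 5 replicate 2 (adjusted p = 0.0765 to 0.14), and in either case 1 of the 5 risers and 1 of the 4 falls were left.

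Markers of cell types that the culture could also hold were examined for their level and direction. Of 15 neuroectoderm genes, PAX6 and SOX2 rose. PAX6, an eye and pancreas factor as well, read 4.23 and 4.70 at day 3, 6.32 and 6.41 at day 4 and 7.77 and 7.94 at day 5 (3.40 ± 0.23, adjusted p = 4.47e-06), with both steps called. Its 3 probe sets ran from 0.16 to 4.33, and 2 were called. The neural genes SOX1 (−0.08), ZIC1 (−0.19) and NES (−0.28) did not pass. The mean level of the list was 4.97 and 5.06 at day 5 and 4.65 and 4.70 at day 3. Of 14 trophoblast and amnion genes, HAND1 and TFAP2A (−1.39) fell, with a mean level of 3.80 and 3.73 at day 5 and 4.29 and 4.04 at day 3. Of 17 fibroblast genes, SNAI2, COL5A1 (−1.48), POSTN (−1.43) and COL1A2 (−1.36) fell, with a mean level of 5.57 and 5.31 at day 5 and 6.01 and 5.66 at day 3.

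Of 16 endothelial and blood genes, VWF rose (1.22) and KDR fell (6.25% in each direction, near the 6.11% and 5.45% of all genes), while PECAM1 (0.27) and CDH5 (−0.21) did not pass, and the list's mean was 4.59 and 4.51 at day 5 and 4.74 and 4.62 at day 3. Of 13 paraxial mesoderm genes, the Notch ligand DLL3 alone fell (−1.21), which is 7.69% of the list, against 5.45% of all genes. The calls of VWF, TFAP2A and POSTN were lost without day 3 replicate 1 or day 5 replicate 2. That of VWF was also lost without day 5 replicate 1, and those of COL5A1 and HAND1 without day 5 replicate 2. The 5 probe sets of VWF ran from −0.03 to 1.44, and 2 were called. On the mesoderm, trophoblast and fibroblast lists, the genes called were lower at day 5, except MYL7, and their part in the other results was not tested. This holds for these lists only. Some muscle genes outside them were called higher, such as TNNC1 (1.50) and TTN (3.41), while others, such as ACTC1 (−1.40) and TNNI3 (0.10), did not pass.

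Of 18 genes of glycolysis and hypoxia, 2 rose and 6 fell. The vasodilator peptide ADM read 8.46 and 8.22 at day 3, 8.57 and 8.46 at day 4 and 9.54 and 10.68 at day 5 (1.77 ± 0.27, adjusted p = 0.0014), a rise called at the second step, and the growth factor VEGFA was the other riser (1.25). The enzymes ALDOC (−0.89), PFKP (−0.76), PDK1 (−0.76) and ALDOA (−0.35), the hydroxylase EGLN3 (−0.81) and the glucose transporter SLC2A1 (−0.90) fell. The call of VEGFA was lost without day 3 replicate 1 or day 5 replicate 2 (adjusted p = 0.306 to 0.318) and that of SLC2A1 without either of these or day 5 replicate 1 (adjusted p = 0.0731 to 0.289). The 6 falls were 2 without day 3 replicate 1, 2 without day 5 replicate 1 and 1 without day 5 replicate 2.

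Of 16 cholesterol synthesis genes, DHCR7 (1.23 ± 0.17), MSMO1 (0.96) and NSDHL (0.54) rose and 0 fell. Of 18 genes of endoplasmic reticulum and integrated stress, the chaperone DNAJB9 (1.14) and the secreted MANF (1.11) rose and 0 fell. The risers were 11.1% of the list, against 6.11% of all genes. The amino acid enzyme ASNS was called lower at day 4 than at day 3 (−1.45) and not at day 5 (−0.77, adjusted p = 0.108). MSMO1 lost the call without day 3 replicate 1 or day 5 replicate 2 (adjusted p = 0.0673 to 0.0882), and DNAJB9 without day 5 replicate 2 (adjusted p = 0.0534), where 1 gene of cholesterol synthesis was left.

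Guidance molecules and interferon genes gave a handful of changes. In the interferon list 11.8% were called higher and 5.88% lower, against 6.11% and 5.45% of all genes. Of 19 semaphorins, plexins and ephrins, 3 rose and 4 fell. SEMA3E read 7.18 and 8.37 at day 3, 8.91 and 9.65 at day 4 and 9.68 and 10.08 at day 5 (2.10 ± 0.34, adjusted p = 0.0017), against 3.03 and 2.96 at day 0. SEMA3A (1.38) and SEMA3C (1.01) also rose, and ROBO1 (−1.25), EPHA4 (−0.99), SEMA3F (−0.78) and SEMA6A (−0.62) fell, with 2 falls left without either day 5 array. Of 17 interferon genes, BST2 (1.76) and ISG15 (0.98) rose and IFI16 fell, while IFIT1 (−0.59) and MX1 (0.13) did not pass, and BST2 lost its call without day 3 replicate 1 or day 5 replicate 2 (adjusted p = 0.0987 to 0.15). Of 9 housekeeping genes, HPRT1 (−0.81) and B2M (−0.64) fell, while GAPDH (−0.23), TBP (−0.17) and ACTB (0.19) did not pass.

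**Figure D4:**
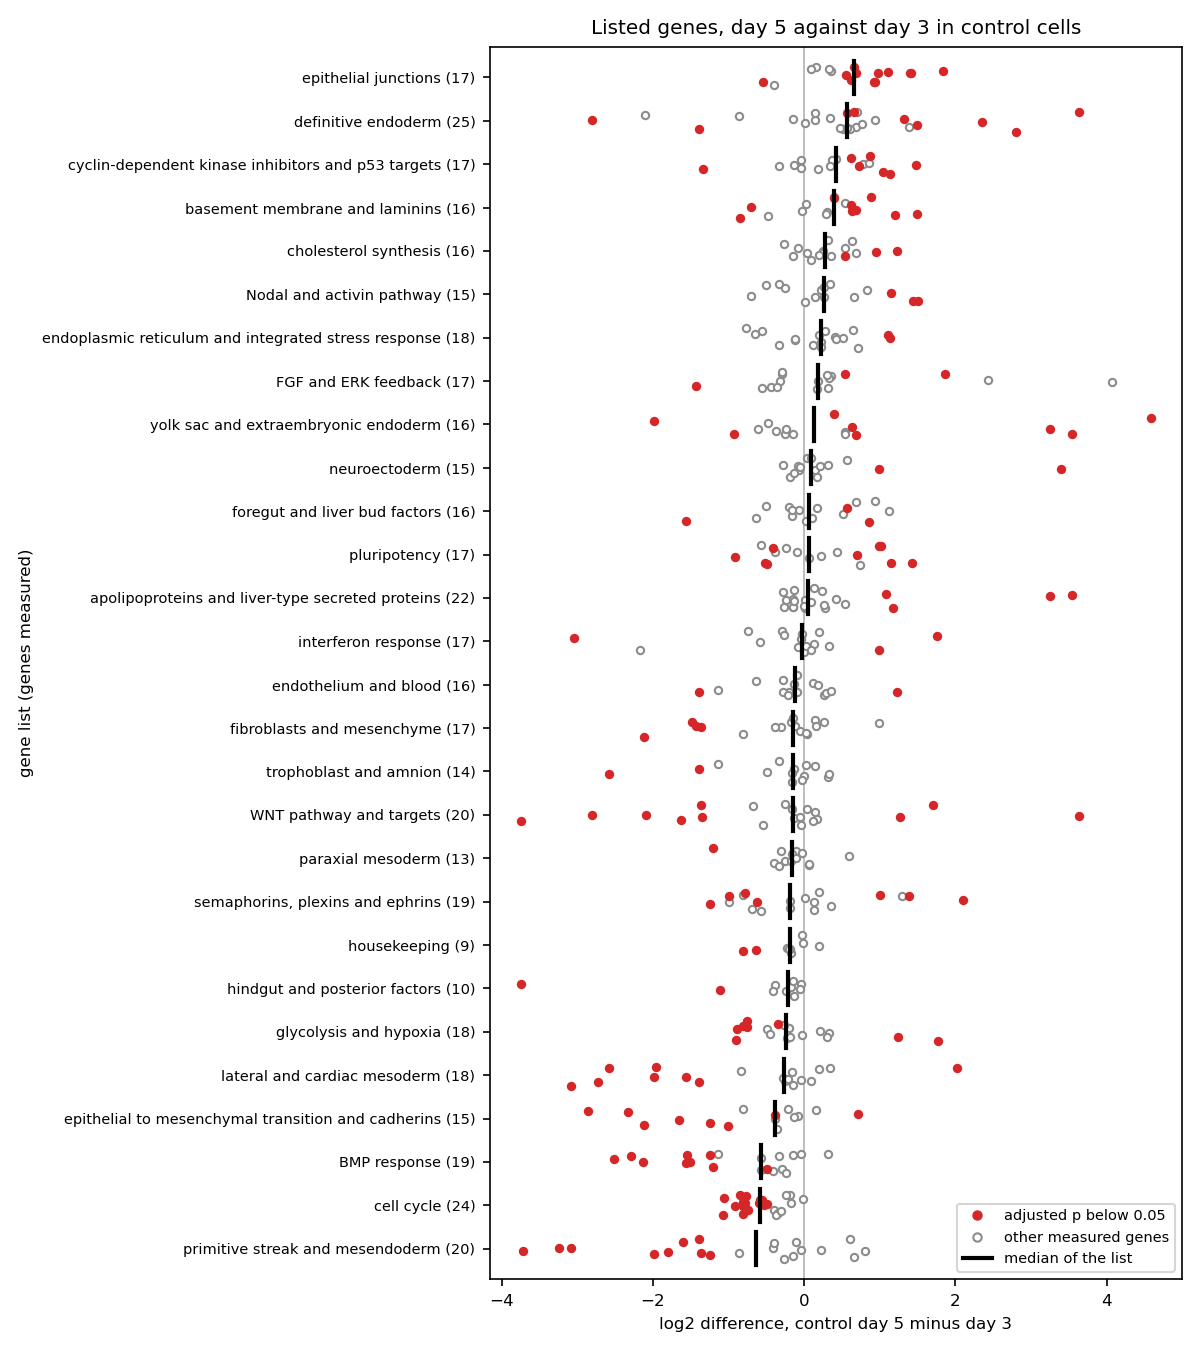
Log2 difference of control day 5 minus day 3 for the measured genes of 28 lists, with the number measured in parentheses. Red points passed an adjusted p of 0.05, open points did not, and black bars are medians, which run from 0.65 for epithelial junctions to −0.64 for the primitive streak.

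The interval was also compared between GATA6-depleted and control cells, as a difference of the 2 differences. It passed the test for 3243 genes (17.9%), with 1564 changing more upward in depleted cells (8.63%) and 1679 more downward (9.26%). Of the 12 genes with the largest rise in control cells, 9 differed, and of the 12 with the largest fall, 3 differed. AMOT read 4.33 and 4.59 log2 at day 5 and 4.49 and 4.47 at day 3 in depleted cells, a difference of −0.02, against 3.81 in control cells (−3.83 ± 0.24, adjusted p = 2.52e-06). FRZB read 3.28 and 3.29 at day 5 and 5.62 and 5.47 at day 3 in depleted cells, a difference of −2.26, against 3.64 in control cells (−5.89 ± 0.55). APOA1 read 5.01 and 4.76 at day 5 and 4.73 and 4.78 at day 3 in depleted cells. The changes within depleted cells were not tested by themselves. The paper reported that depleted cells fell in number and underwent apoptosis over this interval, compared with control cells. It allows that such a loss may account for some of the lower expression. The depleted arrays at day 5 therefore read the cells that remained. The part of cell loss in these differences, and in the list counts below, was not tested.

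SOX21 was higher at day 5 in depleted cells as well, at 5.68 and 6.24 at day 5 and 1.99 and 2.89 at day 3, and its change was not shown to differ (−0.91 ± 0.98, adjusted p = 0.586). FOXQ1 (−2.35 ± 1.09, adjusted p = 0.168) and CCK (−2.88 ± 1.10, adjusted p = 0.0964) were not shown to differ either. Among the falls, TBXT read 7.89 and 7.96 at day 5 and 7.73 and 7.90 at day 3 in depleted cells, where its difference was 0.11, against −3.25 in control cells (3.35 ± 0.53, adjusted p = 0.000894). LIX1 changed by −1.97 in depleted cells, against −4.06 in control cells, and TMEM154 by −1.15, against −2.83. For MESP1 (0.62 ± 0.55), IFI16 (−0.50 ± 0.50), HS3ST1 (−0.03 ± 0.66) and 6 others the difference of changes did not pass.

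Among all genes, 8.63% changed more upward in depleted cells and 9.26% more downward, and the list counts are to be read beside these shares. Of 25 definitive endoderm genes, 19 changed more downward in depleted cells and 0 more upward, and of 24 cell cycle genes 10 changed more upward and 0 more downward. Of 17 pluripotency genes 12 changed more upward and 1 more downward, of 18 genes of endoplasmic reticulum and integrated stress 1 more upward and 8 more downward, and of 19 BMP response genes 6 more upward and 3 more downward. Of 9 measured housekeeping genes, 2 changed more upward. The 4 control arrays stand in both the change of control cells and this difference, so that the 2 results are not independent.

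**Figure D5:**
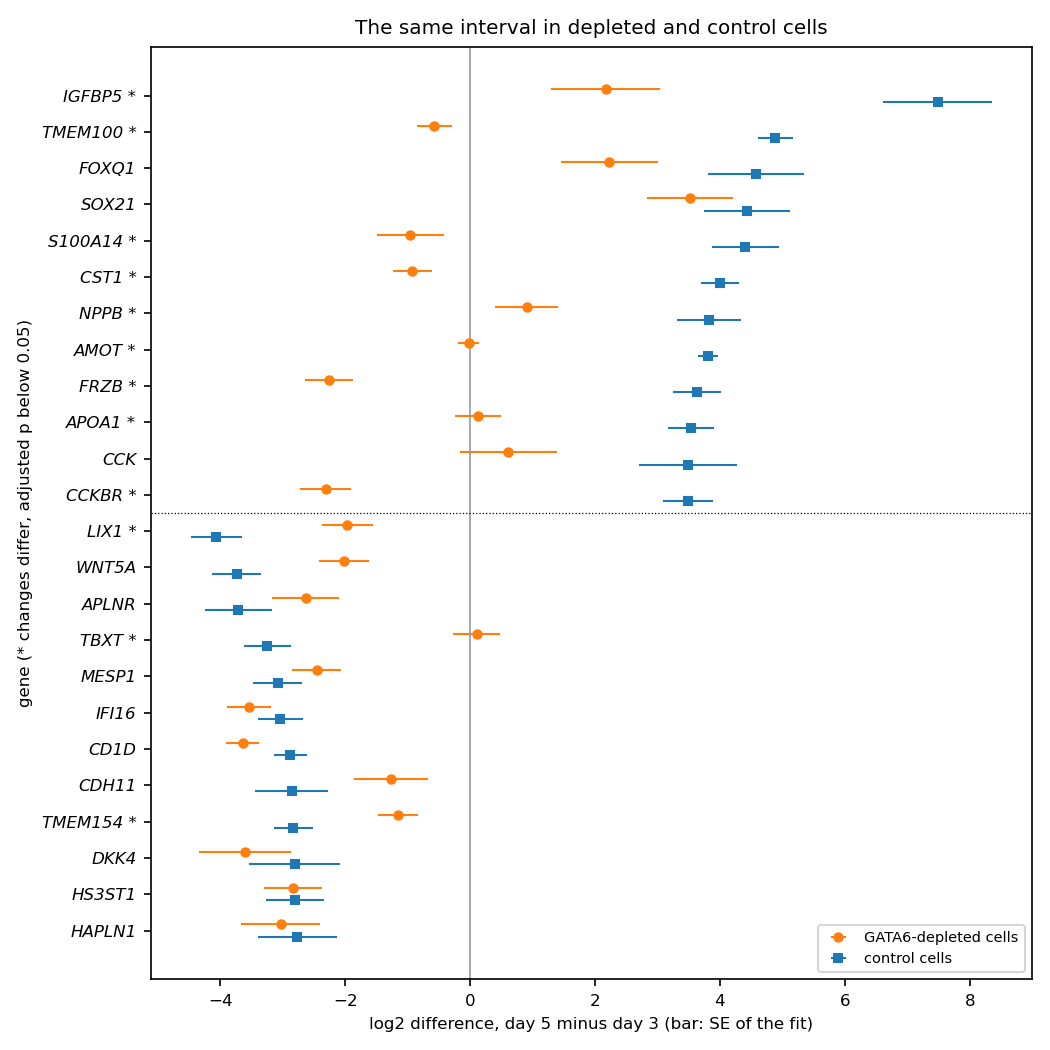
Log2 difference of day 5 minus day 3 in GATA6-depleted cells (orange circles) and control cells (blue squares) for the 24 genes with the largest changes in control cells, with bars of 1 SE of the fit. Asterisks mark the 12 genes whose 2 changes differed at an adjusted p of 0.05, of which FRZB is at −2.26 in depleted cells and 3.64 in control cells.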

How the data were processed

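RNA of 16 samples in 8 groups of 2 was hybridised to Affymetrix PrimeView arrays after 3′ IVT labelling. The authors summarised the scans to log2 levels per probe set with RMA (robust multi-array average), run in Partek Genomics Suite (version not given in the sources used here), and deposited these. RMA equalises the distribution of the arrays, so that a shift common to all genes would not be seen. Of 49395 probe sets, 44988 named 1 gene. Each of 18132 genes was read by the single-gene probe set with the highest mean over the 16 arrays.

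limma 3.58.1 in R 4.3.3 was fitted to all 16 arrays with 1 mean per group (8 residual and 4.58 prior degrees of freedom, median SE 0.152 log2), and p values were adjusted by the Benjamini-Hochberg method over all genes. The number of arrays limits the precision. On simulated data for day 5 against day 3 (18132 genes), 20.9% of 67 genes changed by 0.5 log2, 94% of 67 changed by 1 and 100% of 66 changed by 2 were recovered, with 10 unchanged genes called. The simulated noise was independent between genes and arrays, and no other genes were changed. These figures are therefore not an error rate for the real data.

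The comparison, the 28 gene lists (464 genes, 424 measured) and the tests were chosen with earlier results of these data known. Named were the 12 largest called rises and falls between day 5 and day 3, the 5 largest per direction in the other comparisons, 12 factors that the study followed and up to 4 genes per list by size of change. Other genes were named for their call or role after their values were seen. Alternatives were the probe set, a filter under the 25th percentile, cyclic loess, trended and robust moderation, fewer arrays, a replicate block, each of the 6 arrays left out, the methods' thresholds (unmoderated p of 0.01 and a z-score of 3) and a change of 1 log2. List counts without single arrays were added after seeing the data.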

Additional observations from a re-analysis of the deposited data

Results flagged for a closer look

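The change of day 5 against day 3 differed between GATA6-depleted and control cells for 3243 genes by the test of the difference itself, in which limma's adjusted p passed 0.05. Values are the change in depleted cells minus the change in control cells, in log2, and they share the 4 control arrays with the comparison of day 5 against day 3. Among the genes that rose most in control cells the differences were −5.32 for IGFBP5, −5.46 for TMEM100, −5.37 for S100A14, −4.92 for CST1, −2.93 for NPPB, −3.83 for AMOT, −5.89 for FRZB, −3.41 for APOA1 and −5.80 for CCKBR. Among those that fell most they were 2.09 for LIX1, 3.35 for TBXT and 1.68 for TMEM154. The part that loss of depleted cells had in these differences was not tested.

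The other 11 factors that the study followed differed as well. For 10 of them the change in depleted cells lay below that in control cells, with −3.35 for GATA6, −2.85 for GATA4, −3.61 for SOX17, −2.05 for FOXA2, −3.86 for HHEX, −4.10 for GSC, −2.18 for EOMES, −2.95 for CER1, −4.65 for CXCR4 and −3.90 for FGF17. POU5F1 was at 2.26, with levels of 12.70 and 12.69 at day 5 and 11.34 and 11.36 at day 3 in depleted cells.

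The largest differences upward were those of the tachykinin precursor TAC1 (5.70), the interferon-inducible TRIM22 (5.46), C7orf57 (5.21), the prostaglandin dehydrogenase HPGD (5.18) and the annexin ANXA1 (4.65). TRIM22 read 10.14 and 10.18 at day 5 and 4.24 and 4.53 at day 3 in depleted cells, against 4.28 and 4.50 at day 5 and 4.49 and 3.66 at day 3 in control cells, and 9.83 and 10.04 in undifferentiated cells. Downward, the thyroid hormone deiodinase DIO3 (−6.32), the potassium channel KCNK12 (−6.13) and the semaphorin SEMA3E (−5.63) led, with FRZB and CCKBR. DIO3 read 4.97 and 5.41 at day 5 and 7.89 and 8.17 at day 3 in depleted cells, against 11.31 and 11.51 at day 5 and 7.62 and 8.26 at day 3 in control cells. Of 87 other listed genes named for the change in control cells, 42 differed, against 17.9% of all genes, and the change for which they were chosen is part of the difference. In groups of 2 arrays no array can be set apart from the rest of its group.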

How the results depend on the processing

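With the control arrays only, day 5 against day 3 had 811 genes (782 with a day 4 mean between), day 4 against day 3 had 20 and day 5 against day 4 had 3. With the compared groups only they were 573 (559 between), 0 and 0, and 0 genes departed from the midpoint. Fewer degrees of freedom are left in these fits, and the spread differs between groups. The SD within a group, over genes, was 0.245 log2 at control day 0, 0.238 at day 3, 0.193 at day 4 and 0.217 at day 5. It was 0.163 to 0.175 in the depleted groups and 0.105 in the rescue cells. Pooling the depleted and rescue groups therefore lowers the spread that is used for the control days. Without the rescue arrays the steps had 318 and 26 genes. With each of the 6 arrays left out in turn, day 5 against day 3 ranged from 1059 to 2175 (1018 to 1980 between), the first step from 37 to 800, the second from 5 to 182, and the departures from the midpoint from 0 to 24. The methods' thresholds, run over all probe sets, gave 459, 313, 172 and 105 for these 4 comparisons and 505 for depleted minus control. A change of at least 1 log2 left 621 (602 between), 192 and 30, and 1730 for depleted minus control. Cyclic loess had 58% of the calls of day 5 against day 3 higher, against 52.9%.

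Of the values of named genes under the alternatives, 3 changed sign, none of them of a called gene. Of the values of named genes that were called, 1310 still passed for day 5 against day 3 under the alternatives and 160 no longer did. For day 4 against day 3 they were 117 and 42, and for day 5 against day 4 they were 84 and 43. All 150 values of the 10 genes named for depleted minus control passed. These totals cover named genes, many chosen for large changes, and do not stand for all called genes. GATA6, day 5 against day 3, ranged from −0.078 (without day 3 replicate 1) to 0.089 (without day 3 replicate 2) over the left-out arrays, with −0.032 without day 5 replicate 1, and PPIA was 0.033 with the mean of its probe sets. Same-numbered arrays deviated together only weakly (r = 0.253 for days 3 and 4, 0.0867 for days 3 and 5, 0.226 for days 4 and 5, across genes, which are not independent), and the number alone does not pair them. A replicate block gave 2174, 644 and 65 genes for day 5 against day 3 and the 2 steps, and 3306 for depleted minus control. Levels under the lower quartile of an array, 2.94 to 3.04 log2, are limited by background.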

Other observations

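Some groups of genes were drawn up after their values were seen, and they are given as values only. Among 11 genes of the S100 calcium-binding family, S100A14, S100A16 and S100A13 rose strongly. S100A16 read 6.74 and 7.75 log2 at day 3, 9.22 and 9.78 at day 4 and 10.26 and 10.89 at day 5 (3.32 ± 0.32, adjusted p = 8.1e-05). S100A13 read 8.17 and 8.54 at day 3, 9.82 and 10.20 at day 4 and 10.87 and 10.82 at day 5 (2.49 ± 0.14, adjusted p = 2.24e-06). S100A10 rose less (1.23), S100A4 by 0.66 with a call that was lost without either day 3 array or day 5 replicate 1, and S100A11 (−0.01) and S100A6 (−0.38) did not pass.

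Of 14 sarcomere, muscle and natriuretic peptide genes, 6 were called higher and 8 did not pass, beside 6.11% of all genes called higher. The members were picked with their values known, so the count is not a result about such genes. Titin (TTN) read 5.32 and 5.40 at day 3, 6.15 and 7.42 at day 4 and 7.98 and 9.57 at day 5 (3.41 ± 0.45, adjusted p = 0.000504). LMCD1 (3.24 ± 0.27), the ankyrin repeat protein ANKRD1 (2.97 ± 0.46), MYL7 and TNNC1 rose beside NPPB, whereas the cardiac myosins MYH6 (−0.15) and MYH7 (−0.05), both under 3 log2 on all 6 arrays of days 3 to 5, and the cardiac actin ACTC1 (−1.40) did not pass. NPPA (0.61), MYL4 (0.63), TNNI3 (0.10), TNNI1 (−0.10) and ACTN2 (−0.30) did not pass either.

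Day 3 replicate 1 was low for several immediate early genes besides EGR1 and FOS. JUN read 6.86 on that array and 7.99 on its replicate, and IER2 read 8.01 and 8.71. JUN (1.14) and IER2 (0.76) were called higher at day 5 and lost the call without that array or without day 5 replicate 2. FOSB (−0.02) and JUNB (−0.01) did not pass. Of the gut hormone genes related to CCK, gastrin (GAST, −0.31) and the other receptor CCKAR (−0.23) did not pass.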
